A study of Drosophila melanogaster with 35 samples.

Results

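The comparison described here sets fat body of S106>UASfoxo flies against fat body of S106 flies when neither group was labelled as induced. It holds 9 of the 35 samples of the study and 9 of its 17 fat body libraries, chosen by genotype, tissue and induction label alone. The first group is S106>UASfoxo control, with 4 libraries, and the second is S106 control, with 5 libraries. Both are poly(A) RNA libraries of Drosophila melanogaster females aged 30 days, and both carry the S106 driver. S106 is a GeneSwitch driver, a GAL4 protein that needs the steroid RU486 to activate a UAS transgene, and it is used for the adult fat body. A UAS transgene for dFOXO is carried in addition by S106>UASfoxo flies, so the 2 groups differ in the presence of that transgene and in whatever else differs between the stocks. No source used here gives the insertion sites of the driver and the transgene, the crosses, the genetic backgrounds or the number of flies per library. Each label set also names RU486 feeding as the treatment, but the induction label and the titles mark these 9 libraries as without RU486, and they were grouped by the induction label. The same genotype difference was read in 8 other fat body libraries, 4 of S106>UASfoxo switch and 4 of S106 switch flies, which were kept on food with 200 µM RU486 for 21 days before 7 days without it. No library is in both the comparison without RU486 and the one after it. All 17 fat body libraries were fitted together, however, so the p-values of both comparisons rest on a shared spread estimate.

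The fat body is the fly organ of nutrient storage, yolk synthesis and humoral immunity, with functions that mammals divide between liver and adipose tissue. dFOXO is the forkhead transcription factor that insulin signalling holds out of the nucleus, and its known targets include the translation inhibitor Thor and the insulin receptor InR. The comparison gives the baseline of the design: what separates transgene-bearing from driver-only flies when the driver has not been induced.

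Total counts ran from 6708078 to 11977047 in the S106>UASfoxo control libraries and from 8769465 to 27527703 in the S106 control libraries. Of 14649 rows in the fat body table, 9819 genes passed the filter on low counts, and they held 99.92% of the counts. Levels are given as CPM (counts scaled to library size) scaled by TMM, and a log2 fold change is S106>UASfoxo over S106 with its standard error. A gene counts as called when its adjusted p from the edgeR quasi-likelihood test is under 0.05. Nothing in the labels says that replicates came from separate cultures, so the p-values cover the spread between libraries, which may be technical. All 12 fat body markers were detected in all 9 libraries. Yp1, a yolk protein, ran from 11470 to 75780 CPM and apolpp, the main lipoprotein, from 5776 to 17230 CPM, while Hsl, a lipase, ran from 46.4 to 83.6 CPM and the larval storage protein Lsp2 from 0.512 to 4.52 CPM. Yp1 is also made by ovarian follicle cells. The ovary and egg markers were at a mean of −0.87 to 5.06 log2 CPM in S106>UASfoxo control libraries and −0.28 to 5.91 in S106 control libraries, so germline or egg transcripts varied widely inside both groups. In bulk tissue, fewer cells of a type and less RNA per cell cannot be told apart.

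Replicates 2 and 4 of the S106>UASfoxo control group stood apart. Nuclear rRNA genes took 0.638% and 0.414% of their counts, against 0.0456% and 0.0126% in replicates 1 and 3 and 0.00355% to 0.0952% in the S106 control libraries. In these libraries long transcripts were also scarce relative to short ones: coding genes were sorted by exon length into 5 equal bins, and the mean log2 CPM of the longest bin minus that of the shortest was 0.37 and 0.17 in replicates 2 and 4. It was 0.99 and 0.96 in replicates 1 and 3 and 0.79 to 1.35 in S106 control libraries. The called genes and the gene lists described are given with and without both.

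Without RU486, 3 genes (0.0306% of those tested) rose and 1 (0.0102%) fell in S106>UASfoxo control fat body. The 4 are 0.0407% of the 9819 genes tested. The genes that rose were dpr9, an immunoglobulin-domain cell surface protein of the dpr family, Dop1R1, a dopamine receptor coupled to cyclic AMP signalling, and Argp, a predicted protein arginine phosphatase. The gene that fell was CG43064, which has no role given here. A further gene, Egfrap, an adaptor protein named for the EGF receptor, had an adjusted p just above the threshold. Counted at an unadjusted p under 0.05, 216 genes had a positive and 867 a negative fold change, which is 2.2% and 8.83% of the genes tested.

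dpr9 had 7.07, 12.6, 10.8 and 1.54 CPM in S106>UASfoxo control replicates 1 to 4, against 0.188, 0.475, 0.861, 0.554 and 0.0755 CPM in S106 control replicates 1 to 5. Replicate 4 was the lowest of its group and still above each S106 control library, so the groups did not overlap. The log2 fold change was 4.20 ± 0.65 (edgeR adjusted p = 0.0438). In S106 control libraries dpr9 rested on 1 to 13 counts per library. The gene lies on 3R from 15054930 to 15077206 on the minus strand.

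Dop1R1 had 8.41, 8.43, 12.2 and 7.46 CPM in S106>UASfoxo control fat body and 0.469, 0.611, 1.48, 0.213 and 1.28 CPM in S106 control fat body. The lowest S106>UASfoxo control library, replicate 4, was far above the highest S106 control library, replicate 3. The log2 fold change was 3.52 ± 0.57 (edgeR adjusted p = 0.0438). Dop1R1 lies on 3R from 14165379 to 14214810 on the minus strand.

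Argp had 1.68, 2.78, 2.97 and 3.40 CPM in S106>UASfoxo control libraries, against 0.375, 0.475, 0.246, 0.341 and 0.0755 CPM in S106 control libraries. Each S106>UASfoxo control library was higher than every S106 control library, at 15 to 31 counts per library against 1 to 8. The log2 fold change was 3.10 ± 0.50 (edgeR adjusted p = 0.0438). Argp lies on 3R from 13709159 to 13709939 on the minus strand.

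CG43064 had 7.29, 4.02, 3.79 and 3.18 CPM in S106>UASfoxo control libraries and 12.6, 16.64, 24.59, 16.66 and 15.93 CPM in S106 control libraries. Replicate 1 was the highest of the S106>UASfoxo control group and stayed below each S106 control library. The log2 fold change was −1.92 ± 0.32 (edgeR adjusted p = 0.0438), and the gene lies on 3L from 11834721 to 11836721 on the minus strand. None of dpr9, Dop1R1, Argp and CG43064 overlaps another annotated gene or shares its counts with another row.

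Egfrap, on 3L from 5933036 to 5950658, had 1.57, 3.06, 2.76 and 0.768 CPM in S106>UASfoxo control libraries, against 0.188, 0.204, 0.123, 0 and 0 CPM in S106 control libraries. The groups did not overlap, and S106 control replicates 4 and 5 held no count of it. The log2 fold change was 4.30 ± 0.73 (edgeR adjusted p = 0.0517).

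Control libraries of neighbouring numbers (a round) tended to deviate together, so they were also compared within rounds. The adjusted p above come from the main fit, which holds no block. With the round as a block in edgeR, dpr9 and Dop1R1 were called, each with an adjusted p of 0.0287, while Argp and CG43064 had adjusted p of 0.0883 and 0.087. In each of the 4 rounds that hold both groups the S106>UASfoxo control library was higher for dpr9, Dop1R1, Argp and Egfrap, and lower for CG43064. Since the groups did not overlap in these genes, any pairing of libraries gives that result, so the rounds add nothing on direction. With S106>UASfoxo control replicates 2 and 4 left aside, no gene was called by edgeR, and 110 genes were at an unadjusted p under 0.05. The log2 fold changes were then 4.36 for dpr9, 3.70 for Dop1R1, 2.89 for Argp, −1.64 for CG43064 and 4.39 for Egfrap. Leaving out any 1 library left 0 or 1 gene called, with adjusted p of 0.0112 to 0.202 for dpr9, 0.0887 to 0.202 for Dop1R1, 0.0768 to 0.202 for Argp and 0.0521 to 0.232 for CG43064.

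**Figure D1:**
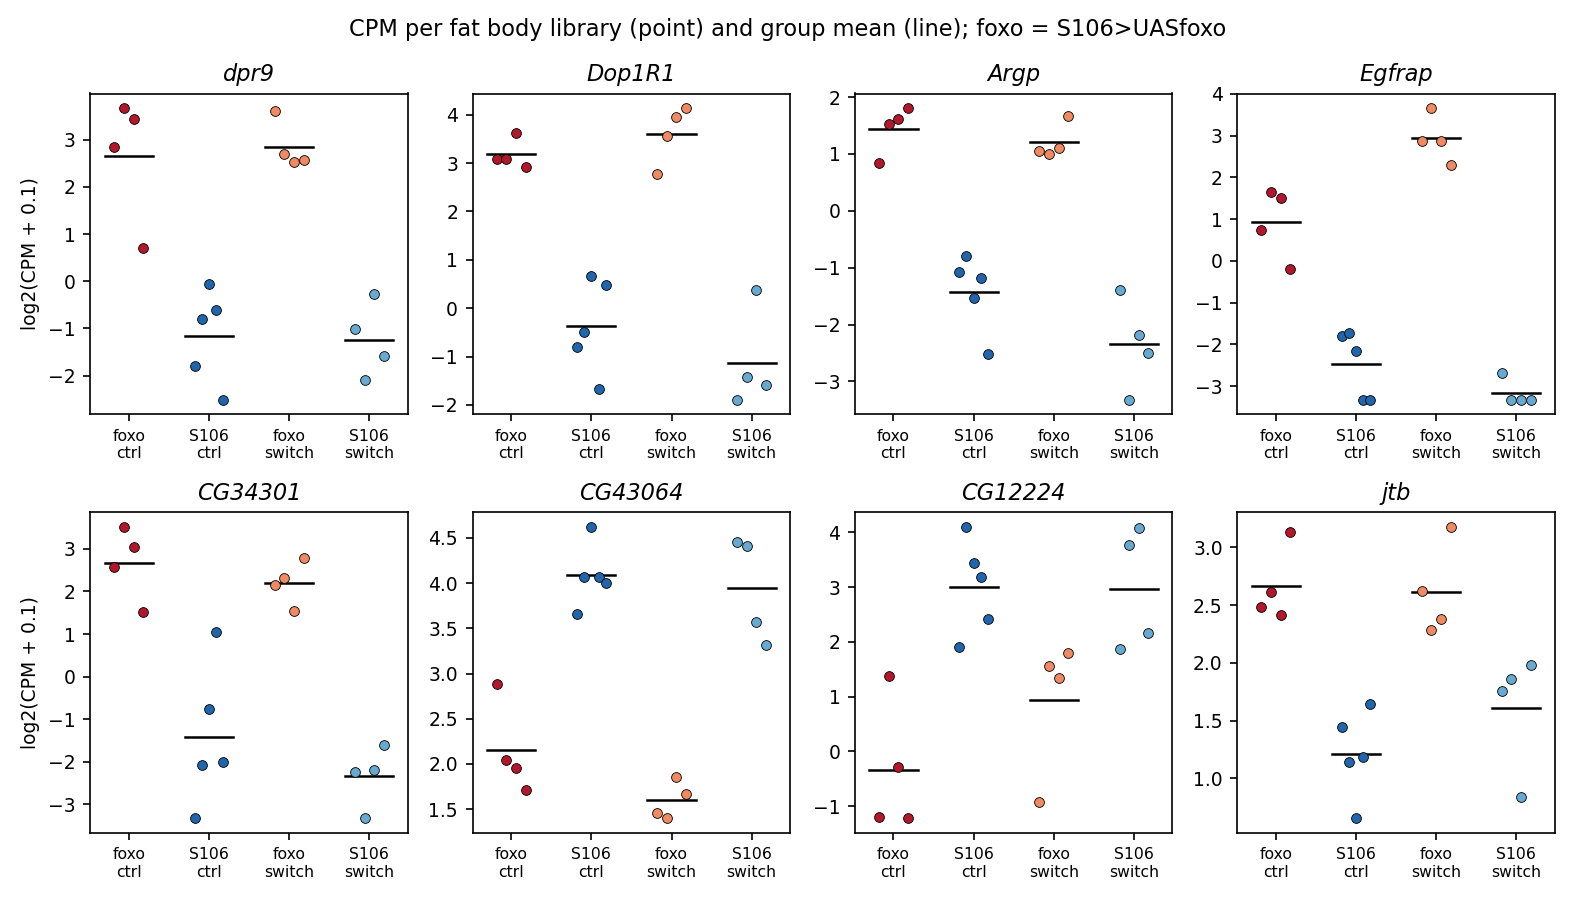
CPM of 8 genes in each of the 17 fat body libraries, as log2(CPM + 0.1), by group, with points for libraries and lines for group means. For dpr9, Dop1R1, Argp, Egfrap and CG34301 every S106>UASfoxo library lies above every S106 library of the same diet, and for CG43064 and CG12224 every one lies below.

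The genotype difference was also measured in libraries of flies that had eaten RU486. There edgeR called 5 genes, 4 higher (0.0407% of 9819) and 1 lower (0.0102%) in S106>UASfoxo switch fat body, or 0.0509% in all. The 5 are dpr9, Dop1R1, Argp, CG43064 and Egfrap, so each of the 4 genes called without RU486 was called again in the same direction. The groups hold separate libraries, but the calls are not independent. All 17 fat body libraries were fitted together, with a shared filter, scaling and spread estimate. With the compared groups fitted alone, edgeR called 0 genes without RU486 and 1 after it.

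dpr9 had 12.1, 6.35, 5.70 and 5.87 CPM in S106>UASfoxo switch libraries and 0.395, 0.136, 0.724 and 0.231 CPM in S106 switch libraries, a log2 fold change of 4.31 ± 0.73 (edgeR adjusted p = 0.0469). Dop1R1 had 6.75, 11.7, 15.3 and 17.5 CPM, against 0.169, 0.272, 1.21 and 0.231 CPM in S106 switch libraries, a log2 fold change of 4.82 ± 0.68 (edgeR adjusted p = 0.00921). The ranges of both genes in S106>UASfoxo switch libraries overlapped those of S106>UASfoxo control libraries. Argp had 1.97, 1.90, 2.06 and 3.08 CPM in S106>UASfoxo switch libraries and 0.282, 0, 0.121 and 0.0771 CPM in S106 switch libraries, a log2 fold change of 3.93 ± 0.60 (edgeR adjusted p = 0.0167). CG43064 had 2.65, 2.54, 3.52 and 3.08 CPM, against 21.9, 21.2, 11.8 and 9.87 CPM in S106 switch libraries, a log2 fold change of −2.45 ± 0.34 (edgeR adjusted p = 0.00921). In none of these 4 genes did the groups overlap. Over all genes, 0.611% lay wholly above and 0.509% wholly below in S106>UASfoxo switch libraries.

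Egfrap had 7.26, 12.5, 7.28 and 4.85 CPM in S106>UASfoxo switch libraries, while the S106 switch libraries held 1 count in replicate 1 and none in replicates 2 to 4. Taken over the summed reads, 257 counts against 1 give a ratio of 360.4 with an exact 95% interval of 64.1 to 14289.3, which covers counting error only. Its edgeR adjusted p was 0.00428. The test of whether the genotype difference of Egfrap itself differs between the diets gave a log2 difference of −3.67 ± 1.30 (without RU486 minus after RU486), with an unadjusted p of 0.0127 and an edgeR adjusted p of 0.950. Over all genes this test called 0 of 9819 by edgeR, with 185 (1.88%) at an unadjusted p under 0.05. DESeq2 and limma-voom also called 0, with 2.13% and 2.14% of genes at an unadjusted p under 0.05.

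Across the wider set, 183 of the 216 genes with a positive fold change at an unadjusted p under 0.05 without RU486 were also positive after RU486. That is 84.7%, where 46.2% of all genes tested were positive. Of the 867 with a negative fold change, 632 were negative after RU486, or 72.9%, where 53.8% of all genes were. The median log2 fold change of the positive genes was 0.66 without RU486 and 0.26 after it, and that of the negative genes −0.96 and −0.14. Since these genes were selected by their values without RU486, their medians there are a description.

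**Figure D2:**
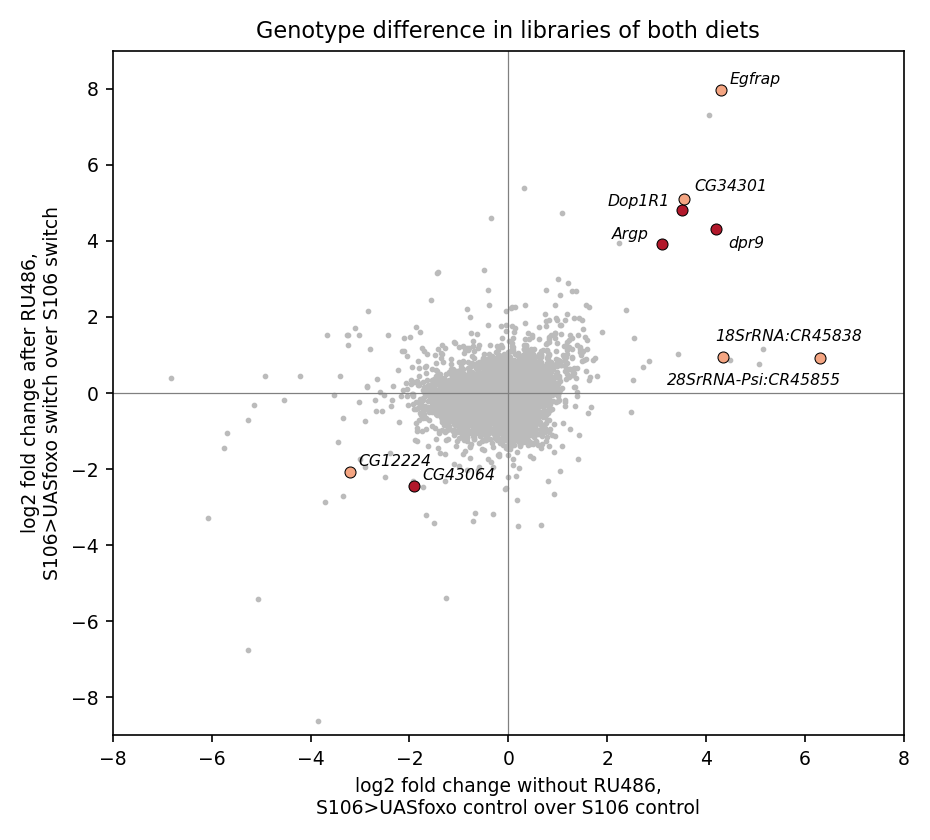
Log2 fold change of S106>UASfoxo over S106 for 9819 genes, without RU486 on the horizontal axis and after RU486 on the vertical axis. The axes hold separate libraries, which were fitted together. The 4 genes called without RU486 are dark red and chosen further genes are light. dpr9, Dop1R1, Argp, Egfrap and CG34301 lie far up and to the right, CG43064 and CG12224 lie down and to the left, and the rRNA genes 18SrRNA:CR45838 and 28SrRNA-Psi:CR45855 lie to the right at 0.94 and 0.91 on the vertical axis.

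The 3 genes that rose lie on the same chromosome arm as the endogenous foxo gene, which is at 3R from 14056945 to 14087978. The start of Dop1R1 is 108.4 kb and that of dpr9 998 kb to the right of the foxo start, and that of Argp is at −347.8 kb, to the left. Within 1 Mb of the foxo start 145 genes were tested, and dpr9 lies close to the edge of that window. The median log2 fold change over the 145 was 0.07, and at an unadjusted p under 0.05 there were 5 positive genes, the 3 called ones included, and 8 negative ones. That is 3.45% and 5.52% of the 145, where 2.2% and 8.83% of all genes were so. The called genes were 3 of the 145, all positive, where 0.0306% of all genes were called and positive. CG9616, whose start is 187.9 kb to the right of the foxo start, had 4.94, 29.5, 24.1 and 20.6 CPM in S106>UASfoxo control libraries, against 3.00, 5.97, 4.43, 7.80 and 5.13 CPM in S106 control libraries. Replicate 1 overlapped the S106 control libraries, and the other 3 were above all of them. Its log2 fold change was 1.90 ± 0.50, and its adjusted p was 0.392 by edgeR and 0.0488 by DESeq2. CG34301, a gene with no role given here, also lies on 3R, with its start at −5284 kb from the foxo start. It had 5.83, 11.4, 8.09 and 2.74 CPM in S106>UASfoxo control libraries and 0, 0.136, 0.492, 1.96 and 0.151 CPM in S106 control libraries. These groups did not overlap, and the log2 fold change was 3.56 ± 0.81 (edgeR adjusted p = 0.392), or 5.10 after RU486.

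**Figure D3:**
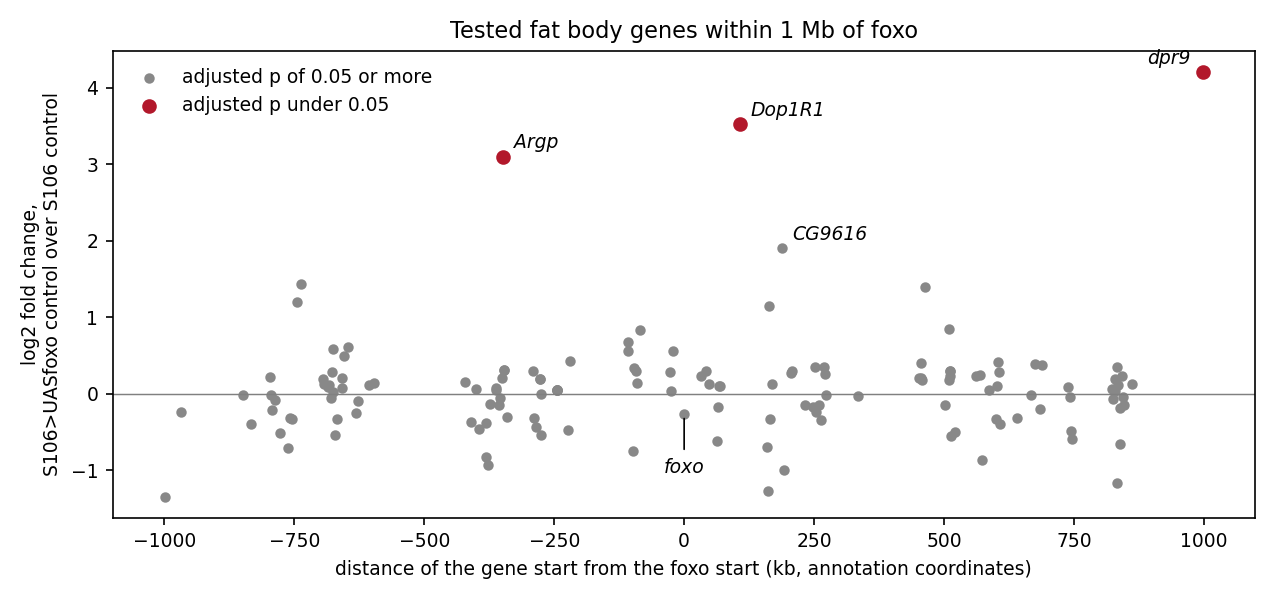
Log2 fold change of S106>UASfoxo control over S106 control for the 145 tested genes that start within 1 Mb of the foxo start, by distance in kb. dpr9, Dop1R1 and Argp (red) stand at 3.10 to 4.20, foxo itself at −0.27, and CG9616 at 1.90.

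The foxo gene itself did not pass the test. It had 93.3, 72.5, 177 and 78.2 CPM in S106>UASfoxo control libraries and 100, 138, 118, 194 and 83.3 CPM in S106 control libraries, and the groups overlapped. The means were 105 ± 48.5 and 127 ± 42.9 CPM (SD, n = 4 and n = 5), a log2 fold change of −0.27 ± 0.33 (edgeR adjusted p = 0.860), or 0.10 when replicates 2 and 4 of S106>UASfoxo control were left aside. Reads of the transgene and of the endogenous gene are not separated in these counts.

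Thor, the translation inhibitor 4E-BP and a known dFOXO target, had 719.1, 581.7, 1067 and 739 CPM in S106>UASfoxo control libraries, against 513, 714, 957, 792 and 163 CPM in S106 control libraries. Its groups overlapped, with S106 control replicate 5 the lowest, and its log2 fold change was 0.31 ± 0.49 (edgeR adjusted p = 0.911). InR, the insulin receptor, had 57.2, 40.3, 169 and 108 CPM in S106>UASfoxo control libraries and 62.8, 25.2, 38.1, 98.7 and 48.9 CPM in S106 control libraries. Replicates 3 and 4 were above all S106 control libraries and replicates 1 and 2 were among them. Its log2 fold change was 0.77 ± 0.43, with an unadjusted p of 0.0892 and an edgeR adjusted p of 0.525. Of 21 textbook dFOXO targets tested, none was called and none was at an unadjusted p under 0.05, with 11 positive, a lowest value of −1.14, a highest of 0.77 and a median log2 fold change of 0.00. The 18 insulin signalling genes had a median of −0.01, with none called in either direction. Without S106>UASfoxo control replicates 2 and 4 these medians were −0.02 and −0.01. The median over all genes tested was −0.015.

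Other members of the dpr9 family were mostly too low to test. Of 31 dpr and DIP genes 9 were tested. Of the 9, 6 were positive, where 48.5% of all genes were, and dpr9 was the only one called, where 0.0407% of all genes were. The median log2 fold change was 0.36, or −0.02 without S106>UASfoxo control replicate 4 and 0.21 without replicates 2 and 4. After RU486 it was 0.01. Of 29 genes for biogenic amine receptors and amine handling, 16 were tested, with 2 positive and Dop1R1 the only one called. The median was −0.60, or −0.45 without S106>UASfoxo control replicates 2 and 4. At an unadjusted p under 0.05, 1 was positive and 4 were negative, where 2.2% and 8.83% of all genes were. After RU486, 13 of the 16 were positive, where 46.2% of all genes were, with a median of 0.37. Oamb, an octopamine receptor, had 1.35, 0.287, 0.717 and 0.329 CPM in S106>UASfoxo control libraries, against 2.25, 3.26, 1.97, 0.980 and 3.25 CPM in S106 control libraries. Its groups overlapped through S106>UASfoxo control replicate 1, and its log2 fold change was −1.79 ± 0.50 without RU486 and −0.52 ± 0.49 after it (edgeR adjusted p = 0.392 and 0.978).

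A second test, DESeq2, called 18 of 10544 genes, or 0.171%, of which 14 were higher. They included the 4 genes above and Egfrap, CG34301 and CG9616. jtb, a gene with no role given here, had 5.50, 6.03, 5.22 and 8.67 CPM in S106>UASfoxo control libraries, against 2.63, 2.10, 1.48, 2.17 and 3.02 CPM in S106 control libraries. Its groups did not overlap, and its log2 fold change was 1.47 ± 0.30 without RU486 and 1.00 ± 0.32 after it (edgeR adjusted p = 0.304 and 0.978). CG12224 had 0.337, 2.49, 0.717 and 0.329 CPM in S106>UASfoxo control libraries and 3.66, 17.1, 10.7, 8.99 and 5.21 CPM in S106 control libraries. Each S106>UASfoxo control library was below every S106 control library, with a log2 fold change of −3.21 ± 0.77 (edgeR adjusted p = 0.392) and −2.08 after RU486.

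The rest of the DESeq2 calls were either smaller or shared their reads. COX7CL, a cytochrome c oxidase subunit 7C-like gene, had a log2 fold change of 1.38 ± 0.30. It overlaps sel on the opposite strand, and sel averaged 61.2 CPM in S106>UASfoxo control and 36.6 CPM in S106 control libraries, so COX7CL is uncertain. Gmap, a Golgi microtubule-associated protein, was at −1.22 ± 0.29 and overlaps Ac13E on the opposite strand, which averaged 63.6 CPM in S106>UASfoxo control and 74.2 CPM in S106 control libraries. Mal-A5, a maltase, had 33.0, 26.1, 32.4 and 15.4 CPM in S106>UASfoxo control libraries, against 47.4, 54.0, 47.7, 54.4 and 46.7 CPM in S106 control libraries. Its groups did not overlap, and its log2 fold change was −0.91 ± 0.22 by edgeR, with a DESeq2 adjusted p of 0.0472. No source used here gives the strand setting of the counting.

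Complete separation of the groups was more frequent on the negative side: in 54 genes (0.55%) every S106>UASfoxo control library was above every S106 control library, and in 307 (3.13%) every one was below. Among the genes of smallest p on that side were CalpC, a calpain-family gene, Taf6, a subunit of the general transcription factor TFIID, and Not10, a subunit of the CCR4-NOT deadenylase complex. CalpC overlaps CG9919 on the opposite strand and CG32579 on the same strand, so CalpC is uncertain. CG32579 averaged 20.9 CPM in S106>UASfoxo control and 18.1 CPM in S106 control libraries. Taf6 had 9.99, 12.9, 17.5 and 6.69 CPM in S106>UASfoxo control libraries and 19.9, 28.1, 21.3, 22.1 and 26.1 CPM in S106 control libraries. The log2 fold changes were −1.26 for CalpC, −0.99 for Taf6 and −0.95 for Not10 without RU486, each with an edgeR adjusted p of 0.392. After RU486 they were −0.25, 0.01 and −0.34, and the groups overlapped in all 3 genes.

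The 6 other genes that DESeq2 called were rRNA genes, which are near-identical copies or lie inside each other, so their counts cannot be assigned to one copy. 28SrRNA-Psi:CR45855 had 6.17, 781, 1.84 and 83.8 CPM in S106>UASfoxo control libraries and 0.938, 2.99, 4.18, 0.426 and 5.36 CPM in S106 control libraries. 18SrRNA:CR45838 had 37.9, 1341, 12.5 and 549 CPM, against 9.29, 21.2, 16.1, 2.68 and 69.8 CPM in S106 control libraries. In both, replicates 2 and 4 were high and replicates 1 and 3 were at or near the S106 control range. Their log2 fold changes were 6.31 and 4.35, and without replicates 2 and 4 they were 0.53 and 0.08.

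Among gene lists, the Toll effectors stood highest. Bomanins and Daisho are short secreted peptides that the Toll pathway induces in the fat body. All 13 tested members had a positive fold change, where 48.5% of all genes did, with a median log2 fold change of 0.98 and a range of 0.18 to 2.54. None was called by edgeR, and 4 were at an unadjusted p under 0.05, where 2.2% of all genes were so and positive. After RU486 all 13 were positive again, with a median of 0.94 and 2 at an unadjusted p under 0.05, where 1.13% of all genes were so and positive. The mean of the list was 5.39, 7.91, 7.12 and 6.07 log2 CPM in S106>UASfoxo control libraries and 5.45, 6.02, 6.60, 6.38 and 4.45 log2 CPM in S106 control libraries. Replicates 2 and 3 of S106>UASfoxo control were above every S106 control library, and replicates 1 and 4 were within their range.

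BomBc1, a bicipital Bomanin, had 8.41, 136.5, 14.54 and 4.72 CPM in S106>UASfoxo control libraries, against 3.00, 9.17, 11.2, 9.33 and 2.57 CPM in S106 control libraries. Replicate 2 was far above the rest, and the other 3 overlapped the S106 control libraries or lay just above them. BomS6, a short Bomanin, had 77.2, 466, 406 and 230 CPM in S106>UASfoxo control libraries and 114, 113, 186, 136 and 42.6 CPM in S106 control libraries, with 3 of 4 libraries above that range. BomT1, a tailed Bomanin, had 4.94, 19.0, 19.4 and 9.98 CPM, against 5.35, 7.81, 6.64, 7.67 and 1.89 CPM in S106 control libraries, again with replicate 1 inside the range. Their log2 fold changes were 2.54 ± 0.83, 1.32 ± 0.52 and 1.18 ± 0.51, with edgeR adjusted p of 0.392, 0.398 and 0.427. The list median was 0.44 without S106>UASfoxo control replicate 2 and 0.56 without replicates 2 and 4.

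The antimicrobial peptides, the other secreted arm of fat body immunity and largely induced by the Imd pathway, ran the other way. All 13 tested were negative, where 51.5% of all genes were, with a median of −0.36 and a range of −1.02 to −0.06, and none was at an unadjusted p under 0.05. The median was −0.62 without S106>UASfoxo control replicates 2 and 4. Their mean was 3.50, 3.25, 2.76 and 3.74 log2 CPM in S106>UASfoxo control libraries and 4.13, 4.12, 4.61, 3.41 and 1.85 log2 CPM in S106 control libraries, with S106 control replicate 5 the lowest and the groups overlapping.

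Lists of central metabolism had negative medians without RU486 and positive ones after it. Of 14 glycolysis genes, none was positive without RU486, with a median log2 fold change of −0.72. None was called, and 3 of the 14 were at an unadjusted p under 0.05, where 8.83% of all genes were so and negative. After RU486 all 14 were positive, with a median of 0.26. The median of the fatty acid oxidation list was −0.69 over 15 genes, and 0.07 after RU486, the TCA cycle −0.63 over 15 genes and 0.28, and lipid synthesis −0.36 over 20 genes and 0.23. No member of these lists was called in either comparison.

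Pgk, the phosphoglycerate kinase of glycolysis, had 60.5, 65.1, 80.2 and 16.2 CPM in S106>UASfoxo control libraries, against 76.0, 183, 116, 166 and 72.4 CPM in S106 control libraries. SdhA, the flavoprotein subunit of succinate dehydrogenase, had 40.05, 41.95, 43.2 and 19.64 CPM in S106>UASfoxo control libraries and 54.1, 107, 73.2, 89.4 and 46.0 CPM in S106 control libraries. FASN1, the fatty acid synthase of the fat body, had 2850, 2607, 2869 and 868 CPM, against 2284, 8637, 8069, 6272 and 2123 CPM in S106 control libraries. In all 3 genes replicate 4 was the lowest library, and S106 control replicates 1 and 5 were the lowest of their own group. The groups did not overlap in SdhA, and overlapped in Pgk and FASN1. The log2 fold changes were −1.15 ± 0.43 for Pgk, −1.03 ± 0.34 for SdhA and −1.25 ± 0.54 for FASN1 (edgeR adjusted p of 0.392, 0.392 and 0.426). The glycolysis mean was 7.19, 7.73, 7.90 and 5.96 log2 CPM in S106>UASfoxo control libraries and 7.35, 8.51, 8.06, 8.36 and 7.32 log2 CPM in S106 control libraries, and the list median was −0.42 without S106>UASfoxo control replicate 4. Without replicates 2 and 4 the medians were −0.52 for glycolysis, −0.41 for fatty acid oxidation, −0.43 for the TCA cycle and −0.14 for lipid synthesis. The fat body marker list, which shares FASN1, Desat1 and Lpin with lipid synthesis, moved with these lists: 10 of its 12 genes were negative, with a median of −0.31, or −0.07 without replicates 2 and 4, and 0.25 after RU486. Its mean was 8.86 to 10.46 log2 CPM in S106>UASfoxo control libraries, lowest in replicate 4, and 9.47 to 10.87 in S106 control libraries, lowest in replicate 5. Its part in the list medians was not tested.

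Basement membrane genes, many of which the fat body secretes, had a median of −0.48 over 17 genes without RU486, −0.32 without S106>UASfoxo control replicates 2 and 4, and 0.13 after RU486, with none called. vkg, a chain of collagen IV, had 33.7, 32.0, 47.5 and 19.1 CPM in S106>UASfoxo control libraries, against 49.1, 273, 95.9, 227 and 41.2 CPM in S106 control libraries. Its log2 fold change was −2.05 ± 0.69 (edgeR adjusted p = 0.392), and only S106>UASfoxo control replicate 3 reached the S106 control range. Col4a1, the other chain, was at −1.80 ± 0.68 (edgeR adjusted p = 0.392). Both chains are also in the hemocyte marker list, whose 10 genes had a median of −0.47, or −0.40 without both libraries, and 0.49 after RU486. Hemocyte markers and basement membrane genes therefore share members, and their part in the result was not tested.

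Ribosomal protein lists had positive medians. Mitochondrial ribosomal proteins were positive in 65 of 72 genes, with a median of 0.34, and cytosolic ribosomal proteins in 71 of 84, with a median of 0.20, where 48.5% of all genes were positive. None was called, and 7 of 72 and 3 of 84 were positive at an unadjusted p under 0.05, where 2.2% of all genes were. RpL41, a very short protein of the large subunit, had 1651, 3471, 3181 and 4243 CPM in S106>UASfoxo control libraries and 1749, 1503, 2246, 1962 and 1166 CPM in S106 control libraries, with replicate 1 inside the range and the other 3 above it (log2 fold change 0.86 ± 0.32, edgeR adjusted p = 0.392). Without S106>UASfoxo control replicates 2 and 4 the medians were 0.01 for the mitochondrial and 0.10 for the cytosolic list, and after RU486 they were −0.01 and 0.25. The 68 respiratory chain genes had a median of 0.22, −0.02 without these 2 libraries, and 0.27 after RU486. Of the 68, 52 were positive without RU486 and 67 after it, where 48.5% and 46.2% of all genes were. Without RU486, 4 were positive and 6 negative at an unadjusted p under 0.05, where 2.2% and 8.83% of all genes were. ER folding genes had a median of 0.14 over 25 genes. Of the 25, 5 were positive and 2 negative at an unadjusted p under 0.05, where 2.2% and 8.83% of all genes were. The ER folding median was −0.22 without S106>UASfoxo control replicate 2, −0.02 without replicates 2 and 4, and 0.01 after RU486. Glutathione S-transferases, the detoxification enzymes, were positive in 24 of 28, where 48.5% of all genes were, with a median of 0.27, or 0.10 without replicates 2 and 4. After RU486 they were positive in 11 of 28, where 46.2% of all genes were.

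**Figure D4:**
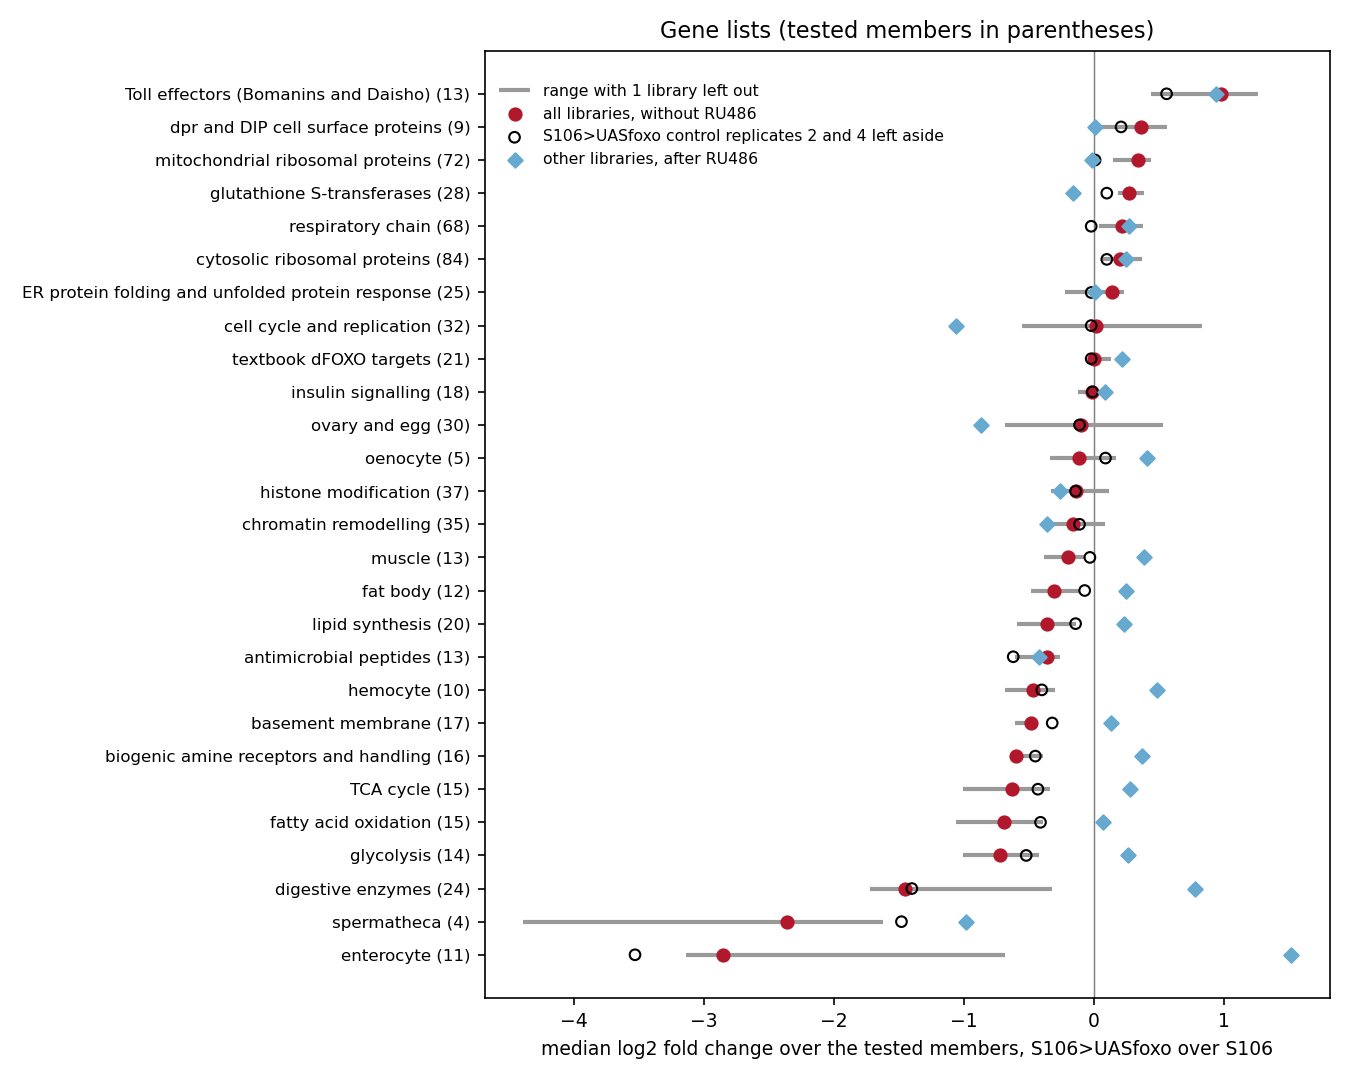
Median log2 fold change, S106>UASfoxo over S106, over the tested members of 27 gene lists: without RU486 (red), the range when 1 library is left out (grey bar), without S106>UASfoxo control replicates 2 and 4 (open), and after RU486 in other libraries (blue diamonds). The Toll effectors are at 0.98 and 0.94 in the 2 diets, while glycolysis is at −0.72 without RU486 and 0.26 after it.

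Exon length moved with the fold change. Over 9140 coding genes Spearman's rho between exon length and the log2 fold change was −0.448 without RU486. It was −0.216 with S106>UASfoxo control replicates 2 and 4 left aside and −0.078 after RU486. This is a relation across genes, which are not independent replicates. The median log2 fold change in the 5 bins of exon length, shortest first, was 0.28, 0.08, −0.05, −0.20 and −0.26. In the shortest bin, up to 1154 bases, 6.62% of genes were positive and 1.48% negative at an unadjusted p under 0.05, and in the longest bin, from 4073 bases, 0.274% were positive and 16.7% negative. Whether transcript length has a part in the list medians above was not tested. Of the called genes, Argp has 613 exon bases, CG43064 2001, dpr9 4826 and Dop1R1 14565. The part of length in these calls was not tested either.

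X-linked genes were the other large class with negative values. Of 1598 tested X-linked genes 241, or 15.1%, were negative at an unadjusted p under 0.05, and their median log2 fold change was −0.18. The 4 large autosomal arms had medians of 0.00 to 0.02 and shares of 6.73% to 8.14%. Within the middle bin of exon length the medians were −0.23 over 307 X-linked and −0.02 over 1523 autosomal genes, and in each other bin the X-linked median was also the lower one. Without S106>UASfoxo control replicates 2 and 4 the X-linked median was −0.13, where the large autosomal arms had −0.04 to −0.02. After RU486 it was −0.06, within the range of the large autosomal arms, −0.06 to −0.01.

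**Figure D5:**
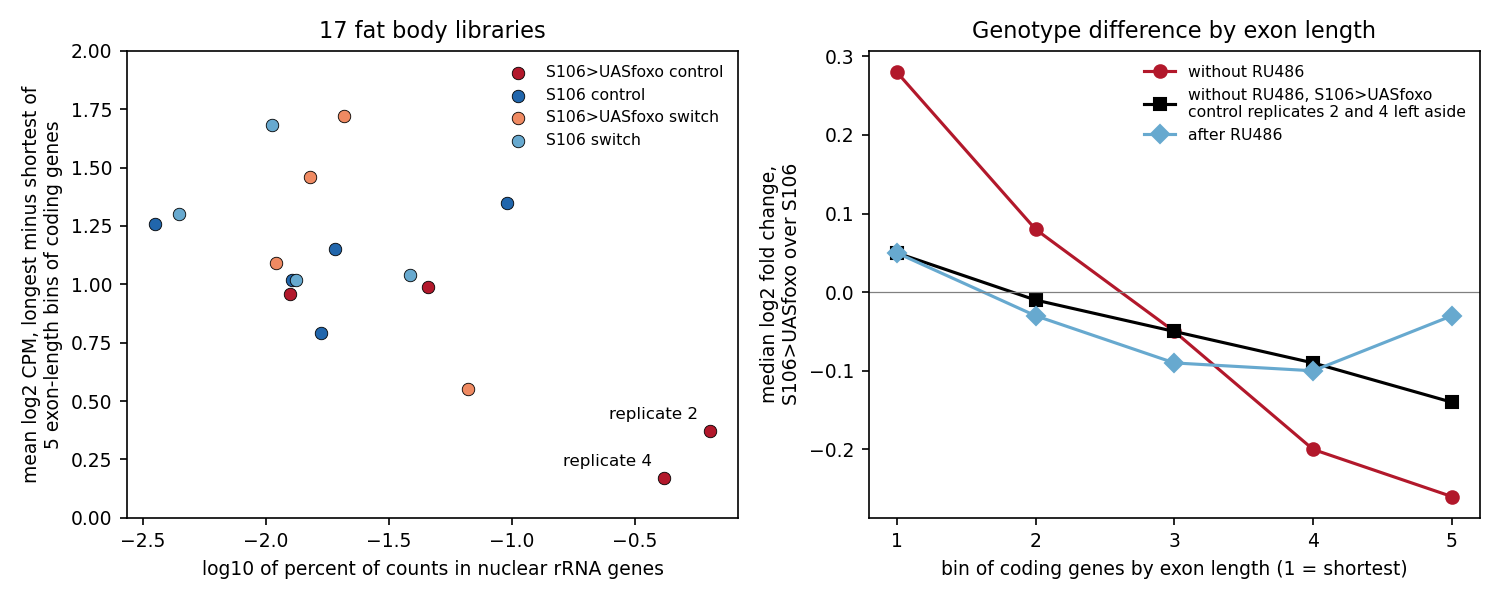
Left: mean log2 CPM of the longest minus the shortest of 5 exon-length bins of coding genes against the log10 percent of counts in nuclear rRNA genes, for 17 fat body libraries, with S106>UASfoxo control replicates 2 and 4 at the lower right, at 0.37 and 0.17. Right: median log2 fold change, S106>UASfoxo over S106, by bin of exon length, which runs from 0.28 to −0.26 without RU486 and from 0.05 to −0.14 without these 2 libraries.

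Markers of other tissues varied between single libraries of both groups. Oenocytes are lipid-handling cells that lie along the abdominal body wall next to the fat body, and the mean log2 CPM of their markers was near that of the fat body markers. Their summed CPM was lower in each of the 9 libraries, over 5 genes against 12. It was 18330 to 53460 in S106>UASfoxo control libraries, where the fat body markers summed to 29390 to 135300. In S106 control libraries the sums were 18780 to 78080 and 39260 to 145900. The mean of the oenocyte markers was 9.20 to 10.74 log2 CPM in S106>UASfoxo control libraries and 9.24 to 11.19 in S106 control libraries. Cyp4g1, the oenocyte hydrocarbon enzyme, ran from 16600 to 73210 CPM over the 9 libraries. The median log2 fold change of the 5 oenocyte markers was −0.11, against 0.20 under the block by library round, 0.09 without S106>UASfoxo control replicates 2 and 4, and 0.41 after RU486. The 11 tested enterocyte markers, digestive enzymes of gut cells, had a median log2 fold change of −2.85, −0.68 without S106 control replicate 4, and −3.53 without S106>UASfoxo control replicates 2 and 4. Of these markers, 5 were negative at an unadjusted p under 0.05 without RU486, where 8.83% of all genes were. After RU486, 9 of them were positive, where 46.2% of all genes were, with a median of 1.52. Their mean was 0.06 to 1.41 log2 CPM in S106>UASfoxo control libraries and 0.34 to 5.21 in S106 control libraries. Jon65Aiv, a serine protease of the gut, had 7.97, 6.13, 1.13 and 4.72 CPM in S106>UASfoxo control libraries, against 3.85, 11.8, 11.8, 231 and 4.61 CPM in S106 control libraries. The value of 231 CPM is that of replicate 4, and the other S106 control libraries overlapped the S106>UASfoxo control libraries. Muscle markers had a median of −0.20 over 13 genes, −0.03 without S106>UASfoxo control replicates 2 and 4, and 0.39 after RU486. Their mean was 6.83 to 7.53 log2 CPM in S106>UASfoxo control libraries and 6.94 to 7.98 in S106 control libraries. For ovary and egg markers the median was −0.10 over 30 genes, and for cell cycle genes 0.02 over 32 genes, or −0.11 and −0.02 without replicates 2 and 4. Their left-out ranges were −0.68 to 0.53 and −0.55 to 0.83, so the sign of either list without RU486 depended on single libraries. After RU486 the 2 medians were −0.87 and −1.06, with 2 of 30 and 0 of 32 genes positive, where 46.2% of all genes were. Spermatheca markers, tested for 4 genes, had a median of −2.36, or −1.48 without S106>UASfoxo control replicates 2 and 4, with no member at an unadjusted p under 0.05. After RU486 that median was −0.98. Send1, Send2, CG17234 and CG17239 each had no count in 2 to 4 of the 9 libraries. The part of these tissues in the called genes was not tested beyond the fits below that hold a marker mean as a covariate.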

How the data were processed

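Fat body was read from a deposited table of raw counts per gene, which the authors made from poly(A) libraries prepared with a directional kit, per the labels' protocols. The tools named in the submitters' processing notes are HISAT2, featureCounts, SAMtools, FastQC and DESeq2. No source used here gives their versions, the genome build, the annotation, the strand setting or whether molecular barcodes were used, without which PCR copies count as reads. Of 14649 rows, 14538 matched a gene symbol, and of 9652 rows averaging at least 10 counts 189 were identical to another row in every library, so overlapping genes are uncertain.

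Here edgeR 4.0.16 in R 4.3.3 fitted the 17 fat body libraries in 4 groups (filterByExpr, TMM, robust quasi-likelihood test, Benjamini-Hochberg adjustment at 0.05), with contrasts for the genotype difference without RU486, after RU486 and between the diets. The common biological coefficient of variation was 0.51. Alternatives were DESeq2 1.42.0, limma-voom (limma 3.58.1), RLE size factors, other filters and thresholds, the compared groups alone, replicate blocks, marker means as covariates and leaving libraries out. Only the main edgeR fit was tested on simulated counts, and only for the comparison without RU486.

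Library rounds are runs of consecutive library numbers in the labels. Same-round libraries of the control groups correlated at 0.406 to 0.737 in their deviations from group means over 4 pairs. Different-round pairs of these groups ran from −0.73 to 0.675, and same-round pairs of the switch groups from 0.056 to 0.783. The round was used as a block in an alternative fit and to compare control libraries within rounds, while the main fit holds no block. Same-number titles of the control groups gave −0.518 to 0.737 and were used only as a block in an alternative fit.

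Positions, exon lengths and overlaps come from the Ensembl BDGP6.54 annotation, which need not be the authors' build. The comparison, the gene lists and the rule for named genes were chosen with earlier results of these data known. The rule takes foxo, Thor and InR, the genes called by edgeR or DESeq2, the members of smallest p of each list and near foxo, the genes of highest CPM, and those of smallest p in each direction. 1 gene of the last kind is not reported here. Gut libraries were not used here.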

Additional observations from a re-analysis of the deposited data

Results flagged for a closer look

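Of 162 groups of 4 or 5 libraries tested for a library far from the rest, 10 had one by Dixon's test, where chance gives about 1 in 20. S106>UASfoxo control replicate 2 was far above its group in 28SrRNA-Psi:CR45855, at 781.3 CPM, and in BomBc1, at 136.5 CPM. S106>UASfoxo control replicate 4 was far below its group in SdhA, at 19.64 CPM, and in FASN1, at 867.9 CPM. S106>UASfoxo control replicate 3 was the lowest in the enterocyte markers, with a mean of 0.06 log2 CPM. S106 control replicate 4 was far above its group in Jon65Aiv, at 231 CPM, and in CG34301, at 1.96 CPM. S106 control replicate 5 was far above its group in 18SrRNA:CR45838, at 69.85 CPM, and in the share of nuclear rRNA, at 0.09524% of counts. S106 control replicate 2 was the highest in Gmap, at 42.64 CPM.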

How the results depend on the processing

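The count of 4 genes called without RU486 was 5 with RLE size factors, without a filter on low counts and at a threshold of 0.1, and 4 with a filter of 10 counts in 4 libraries or without rRNA rows. It was 18 with DESeq2, 2 with limma-voom, 0 on the compared groups alone, 0 at 0.01, 1 with the replicate block by title number, 2 with the replicate block by library round, 9 with the ovary and egg mean as covariate, and 0 to 1 with 1 library left out. Chosen after seeing the data, the muscle and cell cycle means gave 7 each, the enterocyte mean 0, and S106>UASfoxo control replicates 2 and 4 left aside 0. The 5 genes called after RU486 became 9 with DESeq2, 1 on the compared groups alone, 10 with the ovary mean, 9 with the cell cycle mean, 3 at 0.01 and 2 to 4 with 1 library left out; the replicate blocks gave 7 by title and 4 by round. The test between the diets stayed at 0 under RLE, DESeq2, limma-voom and both blocks. At an unadjusted p under 0.05, 493 genes were left without S106>UASfoxo control replicate 4 and 2024 with the ovary mean, against 1083. The cause of these differences was not tested, except that leaving libraries out leaves fewer to test. The log2 fold change of foxo turned to 0.10 with replicates 2 and 4 left aside; dpr9, Dop1R1, Argp, CG43064 and Egfrap kept their direction under each alternative that could be fitted. Counts of 0 to 3 per S106 library for Egfrap and 0 to 8 for Argp limit their folds.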
